A study of Rattus norvegicus with 56 samples.

Results

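Voltage-gated calcium, sodium and HCN channel genes were described in the dorsal striatum of rats with or without a nigral lesion and with or without dopaminergic drugs. A gene was taken as a member when the array annotation gave a probe set, the group of short probes that reads 1 transcript, a single symbol of a calcium channel alpha1, alpha2delta, beta or gamma subunit, a sodium channel alpha or beta subunit or an HCN channel, and when its mean log2 signal over the 56 arrays was above 4.5. A gene with several such probe sets was read by the brightest. The rule found 23 genes, of 10859 genes with a single symbol above that level in the whole table. A further 16 channel genes of the same names were at or below the threshold. The 2 members just inside it were Scn8a, with a mean of 4.69, and Cacna1a, with 4.99, and the 2 genes just outside it were Hcn3, with 4.45, and Cacng7, with 4.32.

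All rats were males of the Crl:OFA (Sprague Dawley) strain, and each of the 8 groups held 7 rats with 1 array per rat. Lesioned rats had lost nigral neurons on both sides of the brain through an AAV vector that overexpressed alpha-synuclein, and sham rats had been injected with the same vector carrying GFP, so every rat carried a viral vector. From 5 weeks after surgery each rat was injected daily for 3 weeks either with 50 mg/kg of the methyl ester of L-dopa, combined with benserazide, or with saline. Place conditioning followed, in which a rat received either pramipexole (ppx, 2 mg/kg, an agonist of the D2 and D3 dopamine receptors, in sessions of 40 min) or saline only. Striatum was taken 24 or 48 h after the last conditioning dose. The 4 lesioned groups were given L-dopa and ppx, L-dopa and saline, saline and ppx, or saline and saline, and the 4 sham groups were given the same 4 combinations. The series title names as its question how the rewarding effect of pramipexole after a lesion and L-dopa relates to transcription.

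Voltage-gated calcium and sodium channels are built from 1 large pore-forming alpha subunit and smaller auxiliary subunits that set its traffic to the membrane and its kinetics. In spiny projection neurons, the main neurons of the striatum, sodium channels carry the action potential, L-type calcium channels shape the depolarised state and signal to the nucleus, and P/Q- and N-type channels trigger transmitter release. HCN channels pass a cation current when the membrane becomes more negative. Dopamine receptors are known to alter several of these currents through phosphorylation, a step that an RNA measurement does not read.

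Of 20779 probe sets tested, 15 separate sample numbers 1 to 37 from numbers 38 to 56 without overlap, and these include 0 of the 23 members. With so small a share of all probe sets, 0 members says little about channel genes in particular. Numbers 1 to 37 hold all lesioned rats, the sham rats given both drugs and 2 sham rats given L-dopa and saline (36 and 37). Numbers 38 to 56 hold the 5 other sham L-dopa saline rats and the sham rats given no L-dopa. Drug differences were therefore taken inside a number set, and the lesion was compared inside a set in rats given both drugs, 7 against 7. The 2 sham L-dopa saline rats 36 and 37 share a number set with the lesioned L-dopa saline rats, and that comparison was not run. The median log2 signal per array ranged from 5.62 to 5.82. The tissue label was set against striatal markers: Penk had a mean log2 signal of 12.2, Drd1 of 10.8, Ppp1r1b of 10.2 and Drd2 of 9.66. In bulk tissue of this kind, fewer cells of a type and less RNA per cell cannot be told apart.

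Levels are given on the log2 scale, on which a difference of 1 stands for a factor of 2. Signals of different probe sets depend on their probes, so they do not rank genes against each other, and the levels below describe each gene on its own. Of the L-type alpha1 genes, Cacna1c (probe set 1370452_at) had a mean of 7.06 over the 56 arrays and Cacna1d (1369086_a_at) of 6.91. Both encode the L-type pores of spiny neurons. Cacna1a, the P/Q-type pore, had a mean of 4.99, and Cacna1b, the N-type pore, had 8.15. Cacna1h, a T-type pore that opens at low voltage, had 7.46 and was the only T-type member, since Cacna1g (3.61) and Cacna1i (3.10) lay below the threshold. Of the alpha2delta subunits, extracellular proteins that raise channel number at the membrane, Cacna2d1, the target of gabapentin, had 9.12 and Cacna2d3 had 10.40. All 4 intracellular beta subunits were members, with means of 6.13 for Cacnb1, 8.51 for Cacnb2, 6.85 for Cacnb3 and 5.64 for Cacnb4. Of 8 gamma subunit genes, 3 were members: Cacng2 (7.18), which encodes stargazin, Cacng3 (6.50) and Cacng4 (5.28). These 3 are known mainly as TARPs, partners that carry AMPA-type glutamate receptors to synapses, rather than as calcium channel subunits.

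Of the sodium channel alpha genes, Scn2a had a mean of 9.82, Scn1a of 9.32, Scn3a of 8.59, Scn9a of 5.59 and Scn8a of 4.69. Scn1a is known for its role in fast-spiking interneurons, Scn2a and Scn8a for the axon initial segment of projection neurons, and Scn3a for its expression in the developing brain. The muscle and sensory neuron genes Scn4a (1.39), Scn10a (2.38) and Scn11a (2.86) were far below the threshold. Of the beta subunits, Scn2b had 10.59, Scn3b had 10.53 and Scn4b had 12.13. Scn4b is abundant in spiny neurons and its protein takes part in resurgent sodium current. Hcn2 (6.05) was the only HCN member, with Hcn4 at 0.46.

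Scn4b and Cacng2, members that recur in the drug and tissue results below, had promoters of opposite composition. They are shown as the 250 bases before the RefSeq start site in assembly GRCr8, written along the gene's strand, with capitals marking each CG pair, the site of DNA methylation. Scn4b is on chr8:54343623-54343872, plus strand, and Cacng2 on chr7:111577758-111578007, minus strand.
Scn4b: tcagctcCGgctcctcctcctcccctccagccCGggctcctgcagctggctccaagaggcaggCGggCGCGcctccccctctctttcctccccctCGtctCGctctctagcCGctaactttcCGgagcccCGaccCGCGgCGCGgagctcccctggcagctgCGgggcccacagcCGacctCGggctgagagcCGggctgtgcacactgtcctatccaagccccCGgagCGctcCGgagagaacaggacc
Cacng2: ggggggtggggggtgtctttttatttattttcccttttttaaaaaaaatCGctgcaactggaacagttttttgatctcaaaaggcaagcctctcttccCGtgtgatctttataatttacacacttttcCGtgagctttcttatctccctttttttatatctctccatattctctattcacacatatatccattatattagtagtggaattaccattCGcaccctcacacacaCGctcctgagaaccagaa
The stretch upstream of Scn4b held 21 CG pairs and was 71.6% G and C. The stretch upstream of Cacng2 held 5 CG pairs and was 38.4% G and C, with TATAAA on the opposite strand, read as TTTATA in the stretch printed, the match farthest upstream lying 143 bases before the start. Of the 23 members, 17 were found in the RefSeq promoter table, with 20 promoters in all, each running from 250 bases before to 50 after the start. Their median content of G and C was 71.8%, against 51.7% over 33469 rat promoters, and their median number of CG pairs was 31, against 7. The members had passed the signal threshold, whereas the 33469 promoters were not filtered by signal, so the sets are not alike. Scn2a, Scn2b, Scn3a and Cacng2 were at the other end of the members, with 39.3%, 39.0%, 43.3% and 39.0% G and C.

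Motifs of factors known to follow dopamine receptor signalling were searched in these windows on both strands, counting a gene once. The CREB motif TGACGTCA was in 0 of 17 member genes and in 2.0% of all 27457 genes with a promoter. The AP-1 motif TGANTCA was in 1 member, Scn3a, and in 8.04% of all genes. The EGR motif GCGNGGGCG was in 6 members (Cacna1b, Cacna1d, Cacna2d1, Cacnb3, Hcn2 and Scn8a) and in 5.53% of all genes. The GC box GGGCGG, which can overlap the EGR motif, was in 10 members and in 36.0% of all genes, and TATAAA was in 1 member and in 15.3%. The EGR letters are themselves rich in G and C, and the member promoters are too, so the EGR and GC box counts come with that base composition. The shares of all genes also include genes below the signal threshold, and shares among genes above it were not measured. Windows of 30 bases around the match, written along the gene's strand with the matched letters in capitals, are given for Cacnb3 (chr7:131666326-131666355, plus strand) and Hcn2 (chr7:10639522-10639551, minus strand), the members with an EGR match that had unadjusted p under 0.05 with L-dopa in lesioned rats, and for Scn3a (chr3:70666241-70666270, minus strand).
Cacnb3: ccaaccgccgCGCCCCCGCcgcccgcgtct
Hcn2: gcggggctccCGCCCCCGCccctcccccgc
Scn3a: gggccattacaTGATTCAtaatgtttccac
In Cacnb3 and Hcn2 the capitals are the EGR motif on the other strand, and in Scn3a they are the AP-1 motif. A match describes the letters only. No binding was measured.

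The members differed in how much they varied between rats of the same group and number set. The SD within these cells was largest for Cacnb1 (0.31), Scn9a (0.29), Hcn2 (0.28) and Cacna1a (0.26) and smallest for Scn2b (0.08), Cacna1c (0.10), Cacna1b (0.11) and Scn2a (0.12). The SD of Cacnb1 was at percentile 83.9 of all probe sets tested and that of Scn2b at percentile 4.20. The 8 group means of Scn2b spanned 0.09 and those of Cacnb2 spanned 0.08. The widest spans of group means belonged to Hcn2 (0.64), Cacng4 (0.57), Cacnb1 (0.44), Scn9a (0.41) and Cacna1h (0.40). The means of Hcn2 and Cacna1h differed between the number sets. Hcn2 had a mean of 5.94 ± 0.31 (SD, n = 37) in numbers 1 to 37 and 6.26 ± 0.27 (SD, n = 19) in numbers 38 to 56. Cacna1h had 7.54 ± 0.15 and 7.30 ± 0.18 in the same sets. These means also differ by lesion and drug, so number set and group cannot be told apart in them. Within the sham L-dopa saline group alone, rats 36 and 37 and rats 38 to 42 had Hcn2 means of 6.38 and 6.35, and the former were higher in Cacna1h by 0.12 (SE 0.13). Inside the sham L-dopa saline group, which spans the sets, limma called 0 of 23 members between rats 36 and 37 and rats 38 to 42, beside 0.077% of all probe sets, and 0 members against 3.94% had an unadjusted p under 0.05. The 6 members of smallest p there, Cacna1c, Scn2b, Cacng3, Cacnb2, Cacng4 and Scn1a, had adjusted p of 1.

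**Figure D1:**
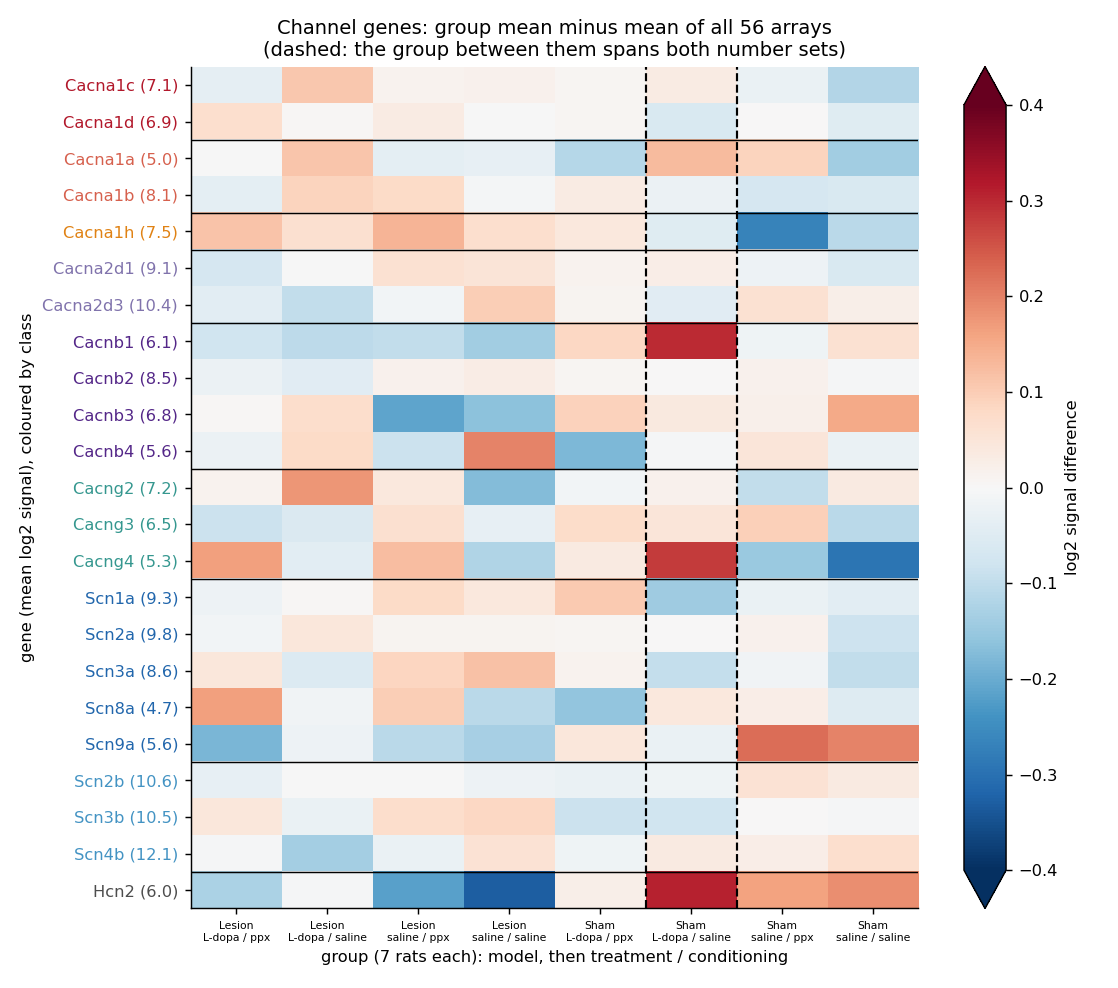
Group mean of each of the 23 channel genes minus its mean over all 56 arrays (colour, log2 units), with genes on the vertical axis ordered by class and the 8 groups of 7 rats on the horizontal axis. Hcn2, Cacng4 and Cacnb1 show the widest spans of group means (0.64, 0.57 and 0.44), while Scn2b and Cacnb2 are nearly even across groups (0.09 and 0.08).

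L-dopa in lesioned rats not given pramipexole was the comparison with most members at a small unadjusted p, and the TARP Cacng2 (1368759_at) stood first. In the lesioned L-dopa saline rats Cacng2 had a lowest, median and highest log2 signal of 7.08, 7.31 and 7.74. In the lesioned saline saline rats it had 6.85, 7.01 and 7.31. All 7 L-dopa rats lay above the mean of the saline rats, and the groups overlapped through rat 22, the saline rat at 7.31, since the next saline rat was at 7.03. The means were 7.36 ± 0.22 and 7.01 ± 0.15 (SD, n = 7 each), a difference of 0.35 (SE 0.10, 95% interval 0.14 to 0.56), with an unadjusted p of 0.00147 and an adjusted p of 0.182 in limma. The adjusted p ran from 0.0758 to 0.434 as each rat was left out and from 0.123 to 0.512 under the other settings. A second probe set of Cacng2 (1375735_at) had means of 6.63 and 6.22, a difference of 0.41 (SE 0.16, unadjusted p 0.0122).

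Limma called 0 of the 23 members in this comparison at an adjusted p under 0.05, beside 0.0144% of all 20779 probe sets tested. At an unadjusted p under 0.05 there were 5 members, or 21.7%, beside 12.2% of all probe sets. This count reads each gene by its brightest probe set. For Cacnb1 the brightest had a difference of 0.03. Its second probe set (1387428_at) had 0.36 (SE 0.15, unadjusted p 0.0182, adjusted p 0.302). The median difference over the members was 0.02, and over all probe sets 0.01. Of the 23 members 13 were higher and 10 lower with L-dopa. By class, both alpha2delta members, 2 of 3 sodium beta members and the T-type member were lower. Both L-type pores, both P/Q- and N-type pores, 2 of 3 TARPs, 3 of 5 sodium alpha members and Hcn2 were higher. Of 4 calcium beta members 2 were higher and 2 lower, and 0 members of any class were called.

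Scn4b (1373188_at), the striatal sodium beta subunit, had a lowest, median and highest signal of 11.83, 11.97 and 12.21 in the lesioned L-dopa saline rats and of 11.79, 12.23 and 12.36 in the lesioned saline saline rats. Rat 22 was the lowest saline rat at 11.79, and the others lay between 12.19 and 12.36, above 6 of the 7 L-dopa rats. The difference was -0.19 (SE 0.08, 95% interval -0.35 to -0.03; limma unadjusted p 0.0179, adjusted p 0.301), and it was -0.26 with rat 22 left out.

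Cacna2d3 (1390358_at), an alpha2delta subunit, had 10.09, 10.35 and 10.52 with L-dopa and 10.13, 10.56 and 10.69 with saline (lowest, median and highest of 7). The groups overlapped, and 6 of 7 L-dopa rats were below the saline mean. The difference was -0.20 (SE 0.08, adjusted p 0.278 in limma).

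Hcn2 (1370966_at) had 5.63, 5.96 and 6.54 with L-dopa and 5.22, 5.71 and 6.23 with saline, with wide overlap. Its difference was 0.33 (SE 0.15, adjusted p 0.350). Cacnb3 (1387042_at), a beta subunit, had 6.70, 6.92 and 7.09 with L-dopa and 6.39, 6.69 and 7.02 with saline, and all 7 L-dopa rats lay above the saline mean. Its difference was 0.24 (SE 0.11, adjusted p 0.351). Scn3a had a difference of -0.17 (SE 0.10, adjusted p 0.465). The L-type pores Cacna1c and Cacna1d had differences of 0.09 (SE 0.06) and 0.01 (SE 0.11), with adjusted p of 0.522 and 0.991.

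**Figure D2:**
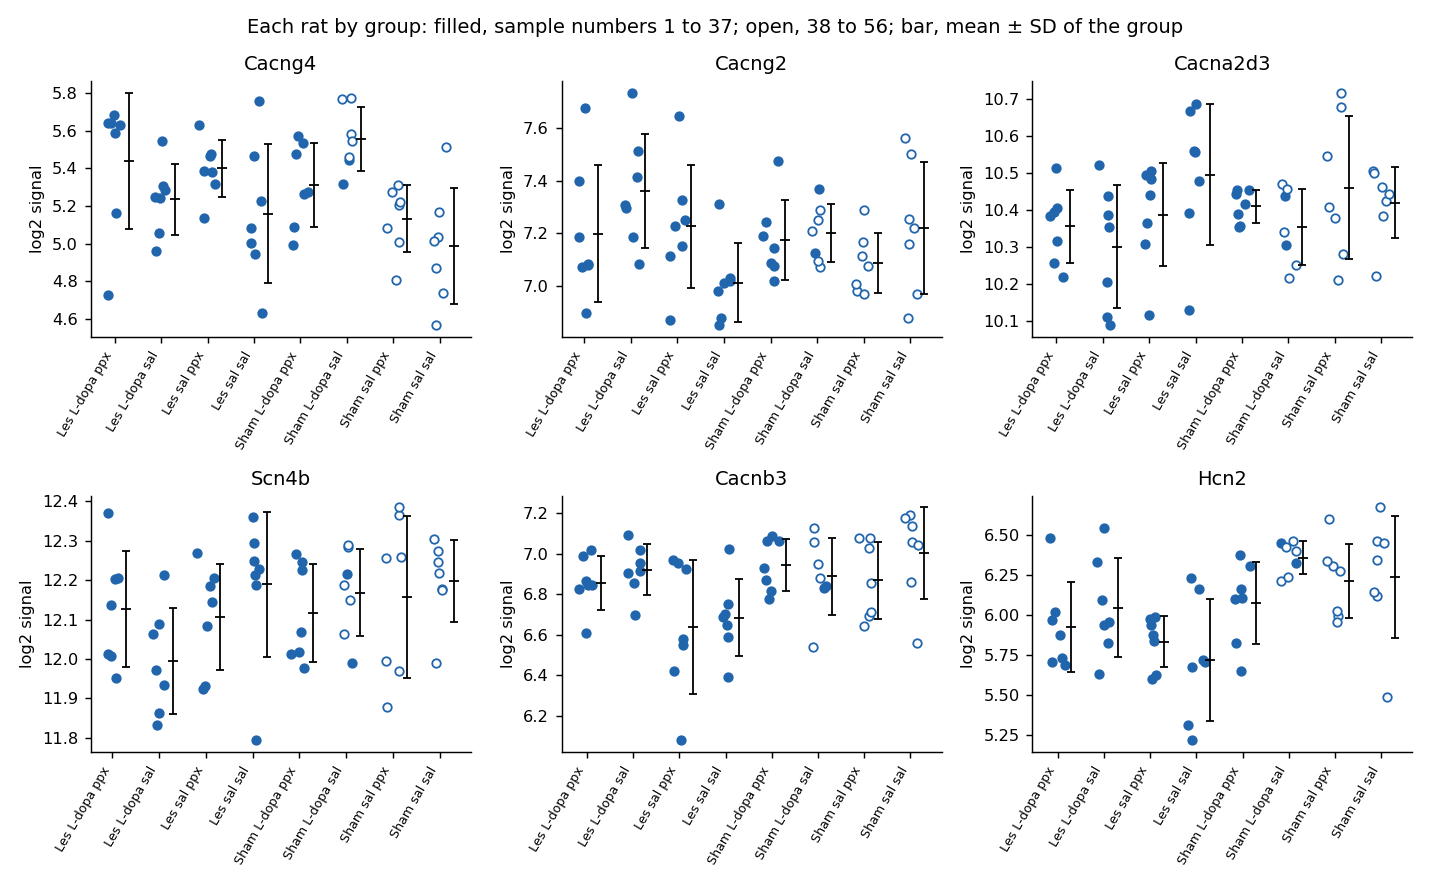
Log2 signal of each rat (points; filled for sample numbers 1 to 37, open for 38 to 56) with the mean ± SD of each group of 7 (bars) for members the results turn on, by group. Cacng2 is lowest on average in lesioned rats given neither drug (7.01), and Cacng4 is lowest in sham rats given neither drug (4.99).

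In lesioned rats that also received pramipexole, L-dopa gave 0 of 23 members called, beside 0% of all probe sets, and 1 member at an unadjusted p under 0.05 in limma, beside 5.14%. That member was Cacnb3, with a lowest, median and highest signal of 6.61, 6.84 and 7.02 in rats given both drugs and of 6.08, 6.58 and 6.97 in rats given pramipexole alone. The rats given pramipexole alone spread widely and overlapped those given both drugs. The difference was 0.22 (SE 0.11, unadjusted p 0.0463, adjusted p 0.946). Cacna1b (-0.12), Cacna2d1 (-0.13), Cacng3 (-0.15), Scn1a (-0.10) and again Cacna1c (-0.05) followed, with adjusted p between 0.946 and 0.995. Scn4b had a difference of 0.02 (SE 0.08), Hcn2 of 0.09 (SE 0.15) and Cacna1d of 0.03 (SE 0.11).

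Over all 28 lesioned rats, 14 with L-dopa against 14 with saline, limma called 0 of 23 members, beside 0.00481% of all probe sets, and 3 members had an unadjusted p under 0.05, beside 9.91%. Cacnb3 came first. It was higher with L-dopa by 0.23 (SE 0.08, 95% interval 0.08 to 0.38; unadjusted p 0.0041, adjusted p 0.304), and 13 of 14 L-dopa rats lay above the saline mean. Cacng2 had a difference of 0.16 (SE 0.07, adjusted p 0.462), Cacna2d3 of -0.11 (SE 0.05, adjusted p 0.473), Hcn2 of 0.21 (SE 0.10, adjusted p 0.504), Cacna2d1 of -0.09 and Scn3a of -0.11. These 28 rats include those of both preceding comparisons, so the values are not independent of them.

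In sham rats not given pramipexole, the L-dopa comparison was led by another TARP, Cacng4 (1370755_at). The 5 sham L-dopa saline rats of numbers 38 to 42 had log2 signals of 5.58, 5.78, 5.77, 5.54 and 5.46. The 7 sham saline saline rats had a lowest, median and highest signal of 4.56, 5.01 and 5.52, and only rat 55, at 5.52, reached the range of the L-dopa rats. The means were 5.63 ± 0.14 (SD, n = 5) and 4.99 ± 0.31 (SD, n = 7), a difference of 0.64 (SE 0.15, 95% interval 0.34 to 0.94). The unadjusted p was 6.9e-05 and the adjusted p 0.285 in limma. Rats 36 and 37 of the same L-dopa group, in the other number set, had 5.44 and 5.31. The lowest sham saline saline signal of Cacng4, 4.56, is close to the threshold for membership, and the gene had no further probe set. The difference ran from 0.57 to 0.73 as each rat was left out, and from 0.45 to 0.68 under the other settings. The adjusted p ran from 0.161 to 0.455 as each rat was left out, and from 0.0614 with the cortical marker score as a covariate to 0.664 when only the compared arrays were fitted.

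Limma called 0 of 23 members in this sham comparison, beside 0% of all probe sets, and 2 members had an unadjusted p under 0.05, beside 6.68%. The second was Cacng3, at 0.22 (SE 0.10, adjusted p 0.726). Cacna1a (0.27), Cacna1c (0.11), Scn9a (-0.23) and Cacnb1 (0.23) followed, with adjusted p between 0.774 and 0.876. A further probe set of Cacna1a (1398459_at) had 0.65 (SE 0.19, unadjusted p 0.00126, adjusted p 0.403). Another (1395062_at) had 0.27 (SE 0.14), as the brightest did. The second probe set of Cacnb1 had the opposite sign, -0.21. Scn4b had a difference of -0.0032 (SE 0.09), Hcn2 of 0.11 (SE 0.16) and Cacna1d of -0.0022 (SE 0.12).

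The L-dopa difference in lesioned rats was set against that in sham rats, both without pramipexole. Limma called 0 of 23 members, beside 0% of all probe sets, and 3 members had an unadjusted p under 0.05, beside 6%. For Cacng4 the lesioned minus sham difference of differences was -0.57 (SE 0.20, unadjusted p 0.00671, adjusted p 0.614): the L-dopa difference was 0.08 in lesioned rats and 0.64 in sham rats. For Cacng2 it was 0.39 (SE 0.15, adjusted p 0.738), from 0.35 in lesioned and -0.04 in sham rats, and for Cacnb3 0.33 (SE 0.16, adjusted p 0.806). Cacng3 (-0.24), Scn4b (-0.19) and Scn9a (0.34) came next. The lesioned and sham rats of this comparison lie in different number sets, and only the difference of differences, not the levels, was compared.

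In the 3 pramipexole comparisons the member of smallest p was a pore, a beta subunit and a TARP in turn. In lesioned rats given L-dopa, limma called 0 of 23 members, beside 0.00963% of all probe sets, and 2 members had an unadjusted p under 0.05, beside 5.73%. Cacna1c had a lowest, median and highest signal of 6.85, 7.05 and 7.15 with pramipexole and of 6.99, 7.20 and 7.28 without it. All 7 pramipexole rats lay below the mean of the others, with overlap between the groups. The difference was -0.15 (SE 0.06, unadjusted p 0.0127, adjusted p 0.792). Cacna1b, the N-type pore, had a difference of -0.13 (SE 0.06, adjusted p 0.852). Scn4b (0.13), Cacng2 (-0.16), Cacng4 (0.21) and Scn8a (0.18) followed, with adjusted p of 0.875 and 0.876. Hcn2 had -0.12 (SE 0.15) and Cacna1d 0.06 (SE 0.11).

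In lesioned rats without L-dopa, pramipexole gave 0 of 23 members called by limma, beside 0% of all probe sets, and 2 at an unadjusted p under 0.05, beside 7.08%. Cacnb4, a beta subunit whose loss causes ataxia in the lethargic mouse, had a lowest, median and highest signal of 5.18, 5.62 and 5.84 with pramipexole and of 5.57, 5.89 and 6.07 without. All 7 pramipexole rats lay at or below 5.84, the mean of the others, and the groups overlapped. The difference was -0.28 (SE 0.11, unadjusted p 0.0141, adjusted p 0.637). Cacng2 had 0.22 (SE 0.10, adjusted p 0.698), and its second probe set 0.43 (SE 0.16, unadjusted p 0.00877). This comparison shares its saline saline rats with the L-dopa comparison in which Cacng2 came first, and those 7 rats are the lowest group for both probe sets. Cacng4 (0.24), Scn8a (0.21), Cacna2d3 (-0.11) and Cacna1b (0.09) followed. Cacna1c (-0.0025, SE 0.06), Cacna1d (0.03, SE 0.11), Hcn2 (0.12, SE 0.15) and Scn4b (-0.08, SE 0.08) had adjusted p of 0.844 or above.

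In sham rats without L-dopa, pramipexole gave 0 of 23 members called by limma, beside 0% of all probe sets, and 1 at an unadjusted p under 0.05, beside 6.29%. Cacng3 had a lowest, median and highest signal of 6.08, 6.68 and 6.81 with pramipexole and of 6.12, 6.42 and 6.76 without, with almost complete overlap. Its difference was 0.20 (SE 0.09, adjusted p 0.780). Cacna1h (-0.16), Cacna1a (0.23), Cacna1c (0.09), Scn2a (0.10) and Cacng2 (-0.13) followed, with adjusted p between 0.812 and 0.900. Of the further probe sets of Cacna1a, 1398459_at had 0.52 (SE 0.17, unadjusted p 0.00437, adjusted p 0.602) and 1395062_at had 0.08 (SE 0.13). Hcn2 (-0.03), Scn4b (-0.04) and Cacna1d (0.05) were smaller than their SE of 0.15, 0.08 and 0.11.

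Over all 28 lesioned rats, 14 with pramipexole against 14 without, limma called 0 of 23 members, beside 0% of all probe sets, and 3 had an unadjusted p under 0.05, beside 6.26%. These were Cacnb4 (-0.19, SE 0.08, adjusted p 0.705), Cacng4 (0.22, SE 0.10, adjusted p 0.720) and Scn8a (0.19, SE 0.09, adjusted p 0.757), with 12, 11 and 11 of 14 pramipexole rats beyond the mean of the others. Cacna1c (-0.07), Cacna1h (0.06) and Cacnb3 (-0.06) were next.

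**Figure D3:**
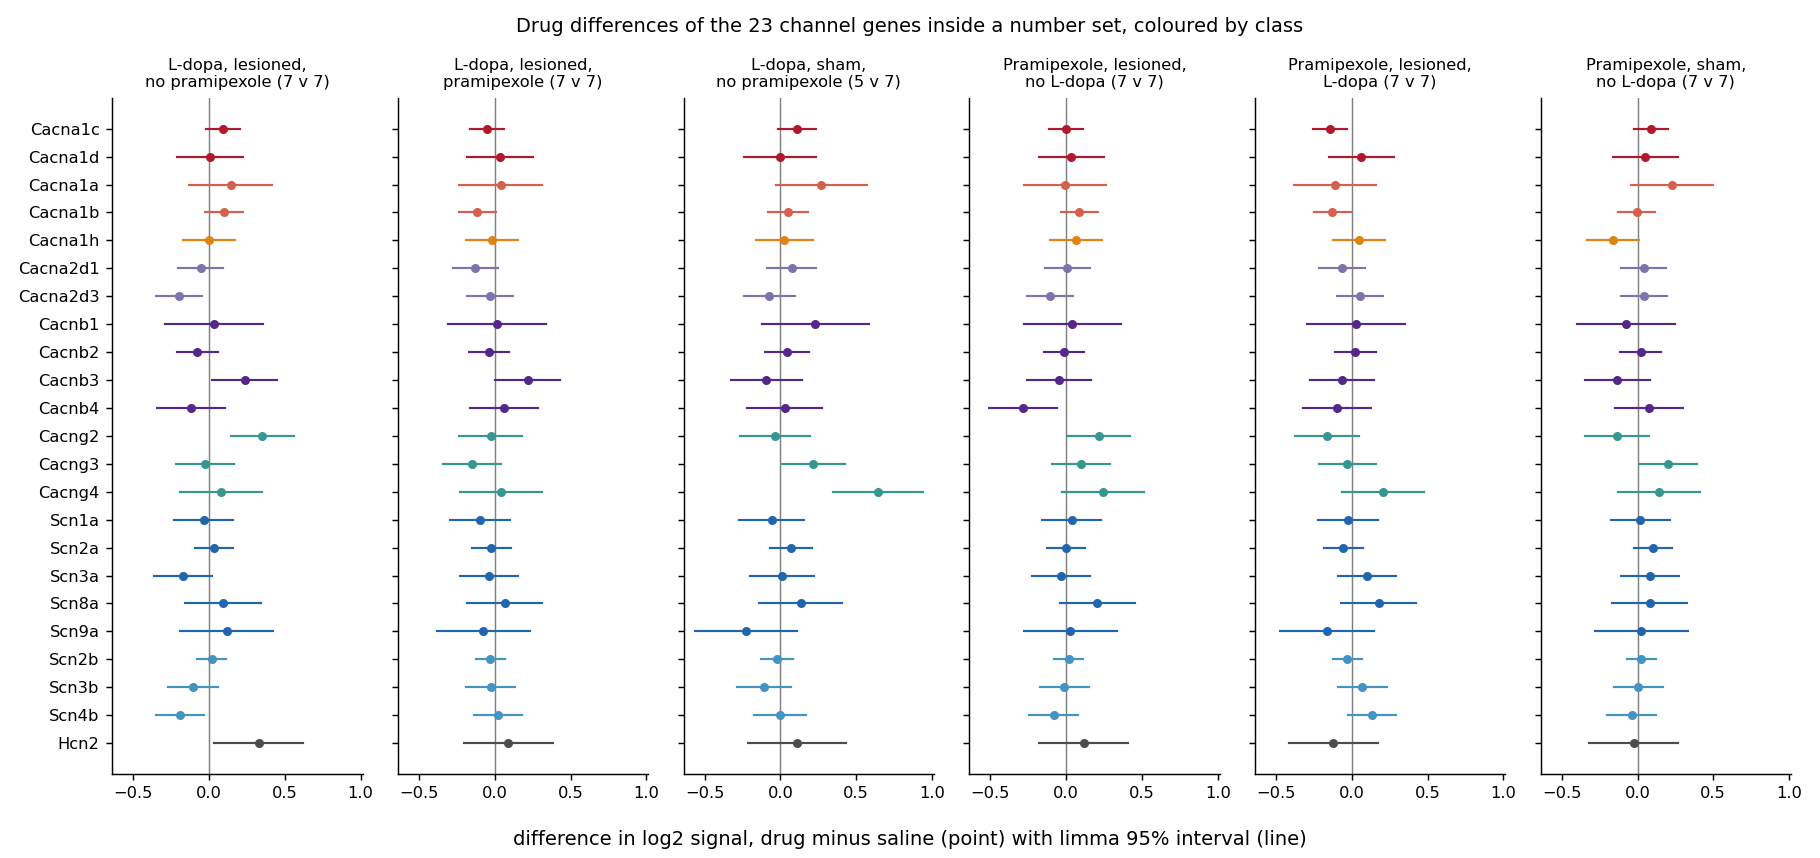
Difference in log2 signal between drug and saline (points) with the 95% interval from limma (lines) for each of the 23 channel genes, coloured by class, in each drug comparison inside a number set. Most intervals include 0, and the point farthest from 0 is Cacng4 with L-dopa in sham rats (0.64).

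Rats given both drugs were set against rats given neither, all lesioned. Limma called 0 of 23 members, beside 0.0241% of all probe sets, and 2 members had an unadjusted p under 0.05, beside 11.9%. Scn8a, a pore of the axon initial segment, had a lowest, median and highest signal of 4.62, 4.89 and 5.08 with both drugs and of 4.34, 4.55 and 4.88 with neither, and all 7 treated rats lay above the other mean. The difference was 0.27 (SE 0.12, adjusted p 0.383). Its signals are close to the threshold of 4.5. Cacng4 had a difference of 0.28 (SE 0.13, adjusted p 0.400), Cacnb4 of -0.22, Cacna2d3 of -0.14, Cacng2 of 0.19 and Cacna2d1 of -0.12.

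Tests of whether one drug's difference depended on the other drug or on the lesion gave 0 members called. For the L-dopa by pramipexole interaction in lesioned rats, 0 of 23 were called by limma, beside 0% of all probe sets, and 2 had an unadjusted p under 0.05, beside 6.77%. The interaction of Cacng2 was -0.38 (SE 0.15, 95% interval -0.67 to -0.08; unadjusted p 0.0132, adjusted p 0.725), with an L-dopa difference of 0.35 without pramipexole and of -0.03 with it. The interaction of its second probe set was -0.46 (SE 0.22). Under the other settings the interaction of the brightest ran from -0.38 to -0.25. Its adjusted p ran from 0.528 to 0.923, the highest with the cortical marker score as a covariate. Cacna1b had -0.21 (SE 0.09, adjusted p 0.725), and Scn4b (0.21), Cacna1c (-0.14), Cacna2d3 (0.16) and Cacnb4 (0.18) followed. With that covariate their adjusted p lay between 0.906 and 0.972. The lesioned saline saline rats enter this interaction and both lesioned minus sham comparisons. For the pramipexole difference in lesioned minus sham rats, both without L-dopa, 0 of 23 were called by limma, beside 0% of all probe sets, and 2 had an unadjusted p under 0.05, beside 6.56%. These were Cacng2 (0.35, SE 0.15) and Cacnb4 (-0.36, SE 0.16), both with an adjusted p of 0.713, ahead of Cacna1h (0.23), Cacna2d3 (-0.15), Cacna1a (-0.24) and Cacna1c (-0.09). Of the further probe sets of Cacna1a, 1398459_at had -0.89 (SE 0.25, unadjusted p 0.000705, adjusted p 0.549). The pramipexole differences of 1395062_at were small in both, at -0.05 in lesioned and 0.08 in sham rats (SE 0.13 each).

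The lesion itself was compared between rats given both drugs. Limma called 0 of 23 members, beside 0% of all probe sets, and 1 had an unadjusted p under 0.05, beside 6.63%. Scn8a had a lowest, median and highest signal of 4.62, 4.89 and 5.08 in lesioned rats and of 4.22, 4.53 and 4.79 in sham rats, with overlap. The difference was 0.32 (SE 0.12, unadjusted p 0.0132, adjusted p 0.685). The adjusted p was 0.934 when only the compared arrays were fitted. Scn8a had no further probe set, and its sham mean of 4.53 is close to the threshold of 4.5. Cacng3 (-0.16), Scn3b (0.13), Scn9a (-0.23), Cacnb4 (0.16) and Scn1a (-0.13) followed, with adjusted p between 0.798 and 0.867. The second probe set of Scn3b had a difference of -0.01. Across the comparisons of 7 against 7 rats the SE of a member's difference had a median of 0.10 and lay between 0.05 and 0.16.

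Partners of these channels and genes of calcium handling were read from a list of 50 genes, of which 46 were tested. The list holds calmodulins, CaM kinases, ankyrins, FGF homologous factors, release site proteins, RGK proteins, calcium pumps, exchangers and stores. Limma called 0 of 46 in each of the 14 comparisons. With L-dopa in lesioned rats without pramipexole, 29 were higher and 17 lower, with a median difference of 0.02, and 11 had an unadjusted p under 0.05, beside 12.2% of all probe sets. Ncs1, a neuronal calcium sensor that binds D2 receptors, had a difference of 0.27 (SE 0.07, unadjusted p 0.000233, adjusted p 0.145), and Camk2a, a kinase of the postsynaptic density, 0.38 (SE 0.15, adjusted p 0.278). With L-dopa in sham rats 33 were higher and 13 lower, with 3 at an unadjusted p under 0.05, beside 6.68% of all probe sets. Slc8a2, a sodium-calcium exchanger, had 0.55 (SE 0.19, adjusted p 0.508) and Syt1, a calcium sensor of release, 0.42 (SE 0.15, adjusted p 0.541). In the other comparisons between 0 and 6 of the 46 had an unadjusted p under 0.05, beside 3.94% to 11.9% of all probe sets.

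Cortical markers had higher means with L-dopa in lesioned rats without pramipexole, with wide overlap between rats. The difference in their joint score was not tested. Of 10 such markers 8 were tested, and 8 of 8 were higher with L-dopa, with a median difference of 0.47, 4 at an unadjusted p under 0.05 (12.2% of all probe sets) and 0 called. Neurod2 had means of 6.84 and 5.93 and Emx1 of 5.18 and 4.30. The mean of the 8 markers, each centred on all arrays, gave a cortical marker score between -0.26 and 0.77 in the L-dopa rats and between -1.02 and 0.66 in the saline rats, with 0.66 in rat 22. Most spiny neuron and cholinergic markers were lower: 4 of 6 D1 spiny neuron markers, led by Tac1 (-0.47, adjusted p 0.235), 5 of 5 D2 spiny neuron markers, led by Ptprm (-0.22), 5 of 5 markers of both spiny neuron types (median -0.06), and 2 of 2 cholinergic markers, Chat (-0.46) and Slc5a7 (-0.39), with 0 called. Of 4 GABA interneuron markers 2 were higher and 2 lower (median -0.01). Of the other lists, 5 of 6 astrocyte markers (median 0.08), 3 of 5 septum, thalamus and pallidum markers (median 0.11), 4 of 6 endothelial and mural markers (median 0.02) and 2 of 3 oligodendrocyte precursor markers (median 0.02) were higher, with 0 called. Further, 6 of 6 microglia markers were higher (median 0.05), 4 of 5 oligodendrocyte markers were lower (median -0.10) and both tested choroid plexus markers were lower, led by Ttr (-2.26, SE 0.69, adjusted p 0.190), with 0 called. The part of cell types other than cortex in the channel differences was not tested. In the sham comparison 7 of 8 cortical markers were higher, with a median of 0.12 and 0 at an unadjusted p under 0.05, and the score lay between -0.29 and 0.21 with L-dopa and between -0.60 and 0.16 with saline.

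Among rats of the same group, many members followed the cortical marker score in one direction or the other. Each member's signal and the score were centred on the group and number set, and 92 relations (23 members, 2 measures, 2 number sets) were tested with two-sided permutation tests and adjusted together. In numbers 1 to 37 (n = 37), 11 of 23 members passed at an adjusted p under 0.05. Of these 3 were positive and 8 negative, and 9 members passed by Spearman's rho. The median r over the 23 was -0.02. Only the members were tested, so the share of all probe sets that follow either measure is not known. The counts therefore do not show a trait particular to channel genes.

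The 3 positive members were Cacna1b, Cacng2 and Scn1a. Cacna1b had r = 0.67 (rho 0.73, permutation p 0.00013, adjusted p 0.0024), and r was 0.69 without the 2 rats farthest from the median score. Cacng2 had r = 0.61 (rho 0.60, permutation p 4e-05, adjusted p 0.0012), and 0.63 without those 2. Scn1a had r = 0.59 (rho 0.61, adjusted p 0.0024), and 0.48 without those 2.

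The 8 negative members were led by auxiliary subunits. Cacna2d3 had r = -0.76 (rho -0.69, permutation p 1e-05, the smallest the permutations can give, adjusted p 0.00092), and -0.67 without the 2 farthest rats. Cacnb2 had r = -0.70 (rho -0.64, adjusted p 0.0028) and Scn4b r = -0.69 (rho -0.66, adjusted p 0.00092), which became -0.58 and -0.61 without those 2. Scn3a (r = -0.61), Cacng4 (-0.58), Scn3b (-0.56), Scn9a (-0.54) and Cacna1h (-0.47) had adjusted p between 0.0037 and 0.023, and without the 2 farthest rats their r lay between -0.51 and -0.33. Scn3b and Cacna1h did not pass by rho, with adjusted p of 0.077 and 0.070. The L-type pores Cacna1c (r = -0.37) and Cacna1d (-0.07), and Hcn2 (0.19) and Cacnb3 (0.04), were not called.

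**Figure D4:**
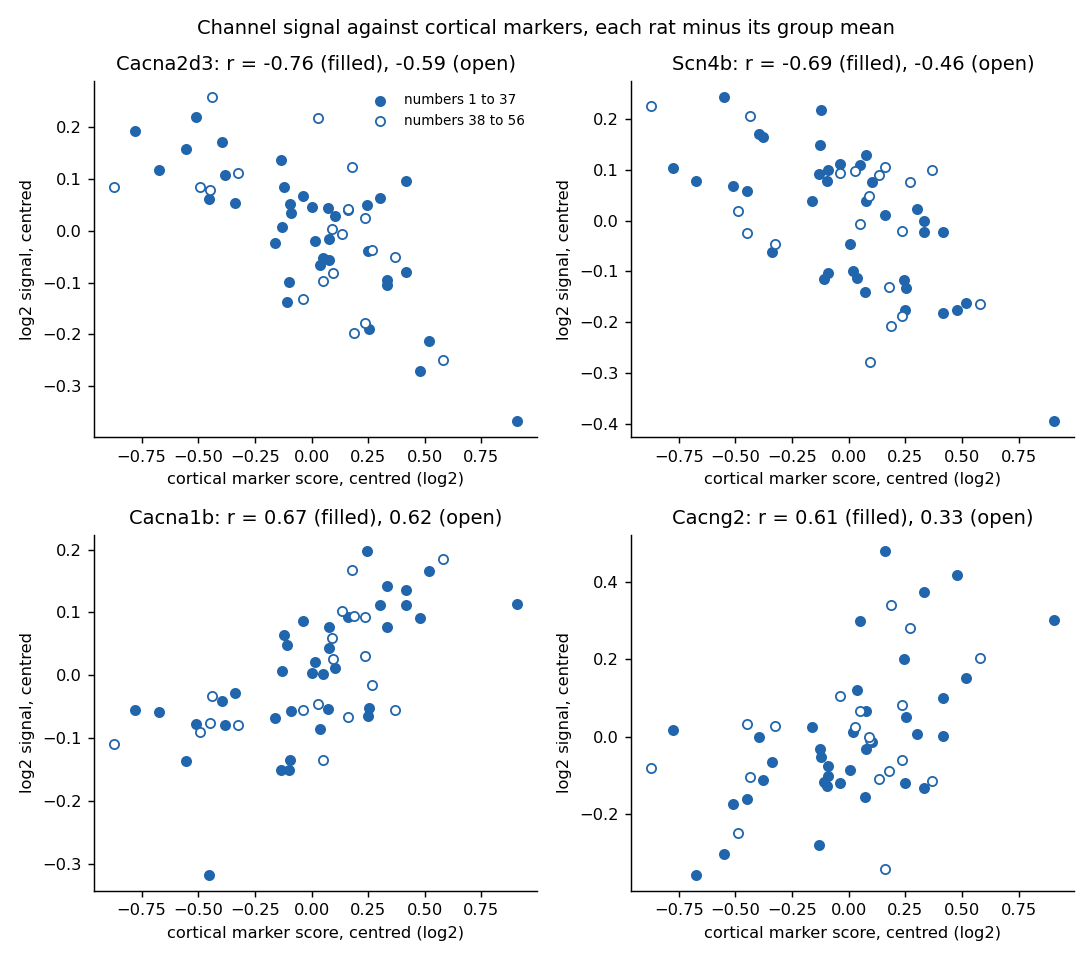
Log2 signal of members against the cortical marker score, each rat minus the mean of its group and number set (log2 units on both axes; filled points, numbers 1 to 37; open points, numbers 38 to 56). In numbers 1 to 37 Cacna2d3 and Scn4b slope down (r = -0.76 and -0.69) and Cacng2 and Cacna1b slope up (0.61 and 0.67).

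In numbers 38 to 56 (n = 19), other rats, 1 of 23 members passed by Pearson's r and 2, Cacna1b and Cacng3, by Spearman's rho. Cacna1b had r = 0.62 (rho 0.67, permutation p 0.0033, adjusted p 0.025), and 0.55 without the 2 farthest rats. Of the 11 members called in the first set, 10 had the same sign of r in the second, the exception being Scn9a (0.19), and of all 23 members 17 did. Cacna2d3 had r = -0.60 (adjusted p 0.12), Scn3a -0.61 (adjusted p 0.062), Scn4b -0.46 (adjusted p 0.34) and Cacng2 0.33 (adjusted p 0.40). Cacng3 had r = -0.62 here (adjusted p 0.067; rho -0.72, adjusted p 0.014) and 0.03 in the first set. Whether a member's relation differed between the sets was not tested. The share of all probe sets that keep their sign between the sets was not measured.

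**Figure D5:**
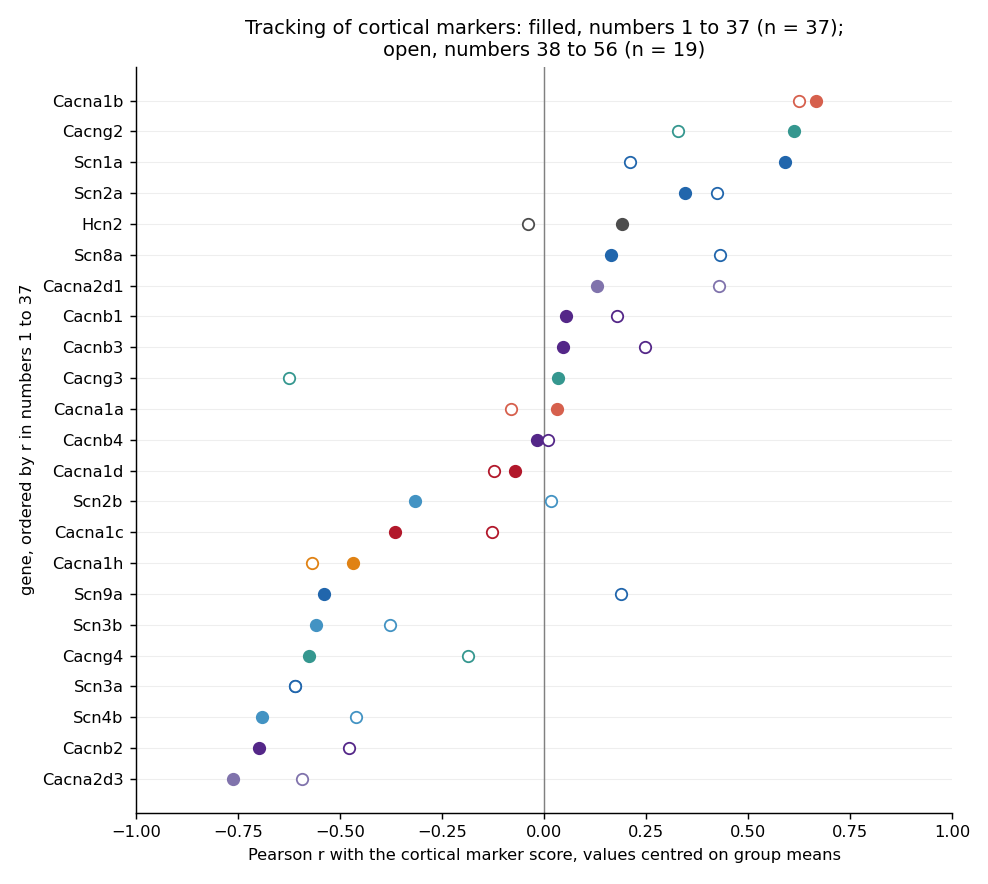
Pearson r of each of the 23 channel genes (vertical axis, ordered by r in numbers 1 to 37) with the cortical marker score, after centring on group and number set (filled, n = 37; open, n = 19). Values in numbers 1 to 37 run from -0.76 for Cacna2d3 to 0.67 for Cacna1b.

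The same members were read again with the cortical marker score as a covariate in the limma fit. For L-dopa in lesioned rats without pramipexole, the difference of Cacng2 went from 0.35 to 0.22 (SE 0.10, unadjusted p 0.028, adjusted p 0.512). That of Scn4b went from -0.19 to -0.08 (SE 0.07), that of Cacna2d3 from -0.20 to -0.07 (SE 0.06), that of Scn3a from -0.17 to -0.03 (SE 0.08) and that of Cacna1b from 0.10 to 0.0044 (SE 0.05). Those of Cacnb3 (0.24 and 0.20) and Hcn2 (0.33 and 0.28) moved less. Others were larger with the covariate: Cacng4 went from 0.08 to 0.23 (SE 0.13), Scn9a from 0.12 to 0.24 (SE 0.16), Scn1a from -0.04 to -0.15 (SE 0.09), Cacna1h from -0.0037 to 0.10 (SE 0.08) and Cacna1c from 0.09 to 0.13 (SE 0.06, unadjusted p 0.0287, adjusted p 0.515). With the covariate 2 of 23 members, Cacng2 and Cacna1c, had an unadjusted p under 0.05 in this comparison, beside 8.73% of all probe sets, against 5 and 12.2% without it. In sham rats the L-dopa difference of Cacng4 was 0.68 (SE 0.13, adjusted p 0.0614) with the covariate. Over all lesioned rats the L-dopa difference of Cacnb3 was 0.21 (SE 0.08, adjusted p 0.424) with it.

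RNA quality was read as the mean 3' minus 5' signal of the GAPDH, beta-actin and hexokinase control probe sets, which grows as RNA is more degraded. In lesioned rats its group medians were 0.896 with L-dopa and 0.805 with saline, both without pramipexole, and 0.903 with both drugs and 0.770 with pramipexole alone. With it as a covariate, the L-dopa difference in lesioned rats without pramipexole was 0.35 for Cacng2 (adjusted p 0.258), 0.23 for Cacnb3, 0.30 for Hcn2 and -0.22 for Scn4b, with 0 of 23 members called by limma. Of the 23 members 1 passed with this measure in numbers 1 to 37, Cacng3, with r = -0.49 (rho -0.45, permutation p 0.0042, adjusted p 0.030), and -0.35 without the 2 farthest rats. In numbers 38 to 56 none of the 23 passed by Pearson's r, and Scn4b passed by rho (r = 0.51, adjusted p 0.062; rho 0.64, adjusted p 0.014).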

How the data were processed

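Total RNA of the dorsal striatum of 56 rats was labelled with a 3' IVT kit and read on Affymetrix Rat230_2 arrays, per the labels' protocols. The deposited values are log2 signals per probe set, made by the authors with MAS5, per the submitters' processing notes; its version and scaling target are not given in the sources used here. Raised to the power of 2, they have a trimmed mean (2% off each end) of 150.042 to 150.046 on every array. They were used as deposited. The number of arrays limits the precision.

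Of 31099 probe sets, 57 are controls, and the 20779 others with a mean above 4.5 were tested. The means of 9 cells were fitted with limma 3.58.1 under R 4.3.3 (8 groups, 1 divided by number set), with eBayes, two-sided tests, 14 comparisons and Benjamini-Hochberg adjustment within each over all 20779. Adjusted p under 0.05 was a call. Where nothing else is said, an adjusted p is limma's. Sample numbers are not shared between groups, so rats were not paired. The labels give 1 sample per rat.

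The members and all lists were chosen with earlier results of these data known. Named in each comparison are called members or, where fewer than 6 are called, the 6 of smallest p. Scn4b, Cacna1c, Cacna1d and Hcn2 are also named in each comparison of a single drug between single groups. The 4 members of largest and of smallest SD are named too, as are up to 2 genes of smallest p from the partner and marker lists. Alternatives were other filters, quantile normalization, a trended robust prior, array weights, fewer arrays in the fit, no number set, covariates for RNA quality and cortex, 16 added to the unlogged signal, the second brightest probe set, and each array left out. Correlations used 100000 permutations. The fit was tested on simulated data.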

Additional observations from a re-analysis of the deposited data

Results flagged for a closer look

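In 184 sets of 7 rats (23 members in 8 groups), the highest or lowest rat was checked for a gap to its nearest neighbour that is large beside the range of the group. Chance gives such a gap in about 1 in 20 sets. It was found in 11 sets, which come from 8 rats.

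Rats 22 and 23, both lesioned and given neither drug, account for 4 of them. Rat 22 had the highest Cacng2 signal of its group, 7.31, with the next at 7.03, and the lowest Scn4b signal, 11.79, with the next at 12.19. It also had the highest cortical marker score of that group, 0.66. Rat 23 had the lowest Cacna1b signal, 7.82, with the next at 8.09, and the lowest Scn2a signal, 9.54, with the next at 9.81, and its cortical marker score was -0.70.

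Rat 51, a sham rat given neither drug, had the lowest Cacna2d3 signal of its group, 10.22, with the next at 10.38, and the lowest Scn4b signal, 11.99, with the next at 12.17. The other 5 were single cases. Rat 1, lesioned and given both drugs, had the highest Hcn2 signal, 6.48. Rat 37, a sham rat given L-dopa and saline, had the lowest Cacnb2 signal, 8.35. Of the sham rats given both drugs, rat 35 had the highest Cacng3 signal, 6.93, and rat 29 the lowest Scn9a signal, 5.17. Rat 45, a sham rat given pramipexole alone, had the lowest Cacng3 signal, 6.08. The cause of these values was not tested.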

How the results depend on the processing

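The count of members called by limma was 0 in each of the 14 comparisons under the 11 other settings and with each array left out, except that the number set comparison has no value without the division by number set. The filter at the 40th percentile of mean signal left out Scn8a, so that setting did not test it. Of 84 named member differences, 4 changed sign, each with the second brightest probe set of the gene: Cacnb1 with L-dopa in sham rats (-0.21), Scn3b for the lesion in rats given both drugs (-0.013), and Scn2b (0.032) and Cacnb2 (0.18) between rats 36 and 37 and rats 38 to 42. The cause was not tested. In this last comparison, which rests on 2 rats against 5, the median member difference was -0.07 without rat 36 and -0.01 with it. After quantile normalization the median difference over all probe sets was within 0.01 of 0 in each comparison. For both drugs against none it was -0.005, against 0.019 with the values as deposited.

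Counts over all probe sets were small and moved with single arrays. With 1 array left out they ran from 0 to 52 for L-dopa in lesioned rats without pramipexole (3 with all arrays), from 0 to 7 for both drugs against none (5), from 0 to 6 for pramipexole in lesioned rats given L-dopa (2), from 0 to 5 for pramipexole over all lesioned rats (0), from 1 to 3 for L-dopa over all lesioned rats (1) and from 7 to 17 for the number set (16). Array weights gave 30 for the number set. No paired analysis was possible because the groups share no sample number.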

Other observations

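Of the 23 members, 7 had 1 or more further probe sets with a mean above 4.5 (8 probe sets in all). Over the 14 comparisons, the sign of the difference matched that of the brightest probe set in 12 for Cacng2 and in 12 and 10 for the 2 further probe sets of Cacna1a. It matched in 10 for Cacnb1 and Cacnb2, in 8 for Cacna1b and Scn3b, and in 3 for Scn2b. The further probe set of Scn2b had a mean of 5.67 against 10.59 for the brightest. The comparisons share rats, so these 14 signs are not independent. Of the further probe sets of Cacna1a, 1398459_at had an L-dopa difference of 0.65 in sham rats and -0.26 in lesioned rats without pramipexole. Its lesioned minus sham difference was -0.91 (SE 0.26, unadjusted p 0.000907, adjusted p 0.403), where the brightest had -0.13. The other, 1395062_at, had L-dopa differences of 0.27 in sham and 0.03 in lesioned rats. For the second probe set of Cacnb1 the lesioned minus sham L-dopa difference was 0.58 (SE 0.22, unadjusted p 0.0118, adjusted p 0.697 in limma). The brightest had -0.20. Its lesioned minus sham pramipexole difference was 0.60 (SE 0.21, unadjusted p 0.00633, adjusted p 0.711), where the brightest had 0.12. The smallest adjusted p of a further probe set was 0.278, for Cacng2 (limma).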
